A study of Mus musculus with 20 samples.

Results

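The 10 genes described here handle iron, zinc and copper in the cell. Among them are the metallothioneins Mt1 and Mt2, the metal transporters Slc39a14, Slc11a1 and Slc11a2, the transferrin receptor Tfrc and the ferritin heavy chain Fth1. The others are the iron exporter Slc40a1 (ferroportin), the ferroxidase Cp (ceruloplasmin) and the hormone Hamp (hepcidin). All 10 were chosen by name, as all non-control probes of the array whose gene name is one of the 10. This gave 15 of 39429 probes. Of these, 13 probes passed the filter on dim probes and 9 of the 10 genes were tested among 21963 genes. The only member not tested was Hamp, whose single probe never rose well above background, whichever channel or array of the 20 is read.

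Macrophages take iron up from transferrin and from dying red cells, store it in ferritin and release it through ferroportin, which passes it on with the help of a ferroxidase. Hepcidin binds ferroportin and has it degraded. Metallothioneins are small cysteine-rich proteins that bind zinc and copper, and their transcription is known to follow the zinc sensor Mtf1. During infection macrophages are known to hold iron back and to move zinc, and LPS, a glycolipid of the outer membrane of Gram-negative bacteria, is used to imitate that setting in culture.

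Messenger RNA was measured on 20 two-colour arrays of macrophages grown for 6 days from the bone marrow of C57BL/6 mice in medium conditioned by L929 cells as the source of M-CSF. The cells were, by their labels, TRIF -/- KO, MyD88 -/- KO, MyD88/Trif -/- double KO (double-KO) or wild type (WT), with 5 arrays each at 1, 2, 4, 8 and 16 h. On each array, cells given 200 ng/mL LPS in serum-free medium were set against untreated ones matched for genotype and time, so every group shares the serum-free medium and the time in it. The LPS receptor Tlr4 signals through MyD88 and through TRIF, the product of Ticam1. The labels do not say whether the arrays come from separate mice or cultures, or whether cells of several mice were pooled, so p-values measure only the spread between these samples, and each genotype has 1 array per time point, which makes that the spread between time points after a time effect shared by all genotypes. In bulk RNA, fewer cells of a type and less RNA per cell cannot be told apart.

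The macrophage label was borne out by its markers: all 12 of 12, among them Csf1r, Cd68 and Adgre1, were well above background on all 5 untreated samples of every genotype, with a summed log2 level between 19.99 and 20.46. The targeted gene Ticam1 averaged 10.81 ± 0.28 (log2, SD, n = 5) in untreated cells labelled TRIF-KO, 10.54 ± 0.18 in MyD88-KO, 7.28 ± 0.04 in double-KO and 10.65 ± 0.19 in WT. The libraries labelled TRIF-KO therefore did not show the loss of Ticam1 signal seen in double-KO, and they are called TRIF-KO-labelled below. The Myd88 probe was bright in every genotype, at means between 14.00 and 14.45, so it does not check the MyD88 labels. Cy5 carried the LPS-treated RNA on 19 arrays. The dyes were the other way round on 1, MyD88-KO at 2 h, and its ratio was turned. The arrays lay on 5 slides of 4 scanned on 2 days, and no slide held a WT array beside a MyD88-KO or double-KO array. Between 57.0% and 70.5% of probes were well above background per array, no spot of a member was saturated, and the number of arrays limits the precision. Values below are log2 ratios of LPS over untreated cells, or normalized log2 levels of 1 channel, which can be compared between samples for a probe but not between probes. A response is the mean log2 ratio of a genotype with its SE from limma, and calls use a Benjamini-Hochberg adjusted p under 0.05 over all genes.

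With LPS, 5 of the 9 tested members were higher and 1 lower in TRIF-KO-labelled cells, against 29.1% of all genes called in that comparison. In MyD88-KO cells 2 were higher and 2 lower, against 35.5% of all genes called. In double-KO cells none of the 9 was called by limma, against 0.387% of all genes, and none had an unadjusted p under 0.05. In WT cells 6 were higher (Mt2, Slc39a14, Cp, Mt1, Fth1 and Slc11a2) and 1 lower (Slc40a1), against 36.4% of all genes called. With a dye term, for which 1 swapped array is the only basis, 0 members were called in TRIF-KO-labelled cells, 0 in MyD88-KO and 2 in WT, and calls over all genes were 324, 844 and 458. Several responses were then as large or larger though not called: Mt2 was 1.70, Slc39a14 2.88 and Cp 1.19 in TRIF-KO-labelled cells, and Mt1 was 1.40 in WT. Others were smaller, as for Slc40a1 at -0.69 in TRIF-KO-labelled cells and Tfrc at -0.62 in MyD88-KO. With slide as a fixed block, which largely goes with genotype here, the counts of members were 0, 1 and 0. The median response of the 9 members was 0.44 in TRIF-KO-labelled cells, -0.05 in MyD88-KO, 0.03 in double-KO and 0.90 in WT, and the medians over all genes lay between -0.02 and 0.00.

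**Figure D1:**
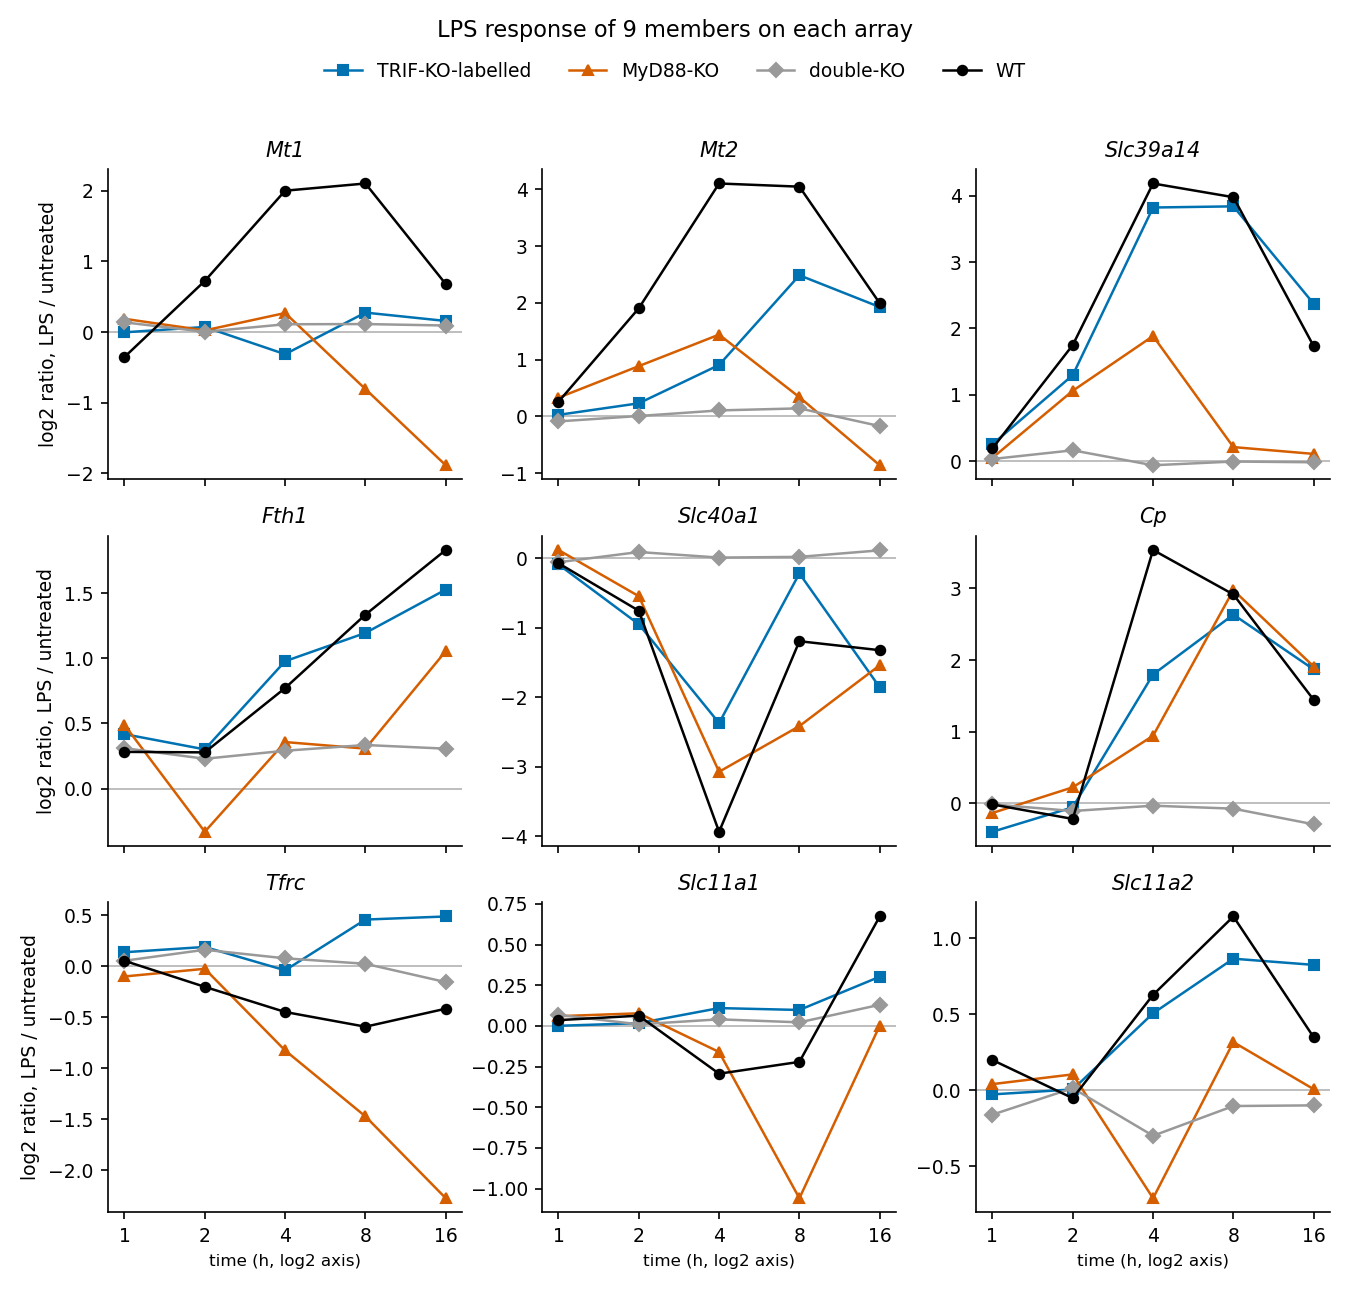
Log2 ratio of LPS-treated over untreated cells (vertical axis) on each of the 20 arrays against time in hours (horizontal, log2 axis), 1 panel per tested member with its own scale; lines join the single arrays of a genotype and there are no error bars. WT points of Mt2 and Slc39a14 peak at 4 h, at 4.10 and 4.18, while the double-KO points of both stay between -0.17 and 0.16.

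The metallothioneins Mt1 and Mt2 are encoded close to each other on chromosome 8 (mm9): the Mt2 probe lies at chr8:96697371-96697430 and the Mt1 probes at chr8:96704165-96704224 and chr8:96703844-96703903, all on the plus strand. With no genome at hand, their place within exons was not annotated. Their upstream sequences are shown because both genes responded in WT and because the letters bound by the zinc sensor Mtf1 are known. Each sequence is the 250 bases before the start that RefSeq gives (GRCm38.p6, plus strand), chr8:94178839-94179088 for Mt1 and chr8:94172368-94172617 for Mt2. Capitals mark the core of the metal response element, searched as TGCACNC and TGCGCNC on both strands.
Mt1: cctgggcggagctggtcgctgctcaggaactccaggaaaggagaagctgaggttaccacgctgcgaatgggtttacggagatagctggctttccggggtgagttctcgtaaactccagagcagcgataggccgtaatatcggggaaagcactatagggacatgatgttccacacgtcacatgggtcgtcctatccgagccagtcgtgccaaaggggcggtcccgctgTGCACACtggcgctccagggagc
Mt2: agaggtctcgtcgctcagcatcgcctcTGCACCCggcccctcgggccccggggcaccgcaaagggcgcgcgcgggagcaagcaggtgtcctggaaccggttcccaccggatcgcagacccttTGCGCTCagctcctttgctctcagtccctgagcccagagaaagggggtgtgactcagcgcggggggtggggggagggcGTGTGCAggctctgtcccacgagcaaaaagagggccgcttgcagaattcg
The Mt2 stretch held 3 such cores, ending 217, 122 and 44 bases before the start, the last of them on the minus strand. The Mt1 stretch held 1, ending 17 bases before the start. Of 32851 windows of the same length in the RefSeq table, 21.4% held at least 1 core and 1.26% at least 3. The bases after the annotated starts were not searched. The antioxidant element core TGACNNNGC, also searched on both strands, was found in the Mt2 stretch once, 79 to 71 bases before the start, and in 10.2% of all windows. Among the other members with a window in that table, Tfrc had metal cores too, a pair that overlap between 53 and 44 bases before 1 of its 2 annotated starts, and the window before the other start had 0. A match of letters is a description and shows no binding.

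Mt2 gave log2 ratios of 0.03, 0.23, 0.91, 2.49 and 1.93 at 1, 2, 4, 8 and 16 h in TRIF-KO-labelled cells. In MyD88-KO cells the ratios were 0.33, 0.89, 1.44, 0.34 and -0.86, and in double-KO cells they were -0.09, 0.01, 0.11, 0.14 and -0.17. In WT cells they were 0.26, 1.91, 4.10, 4.05 and 1.99. WT was thus the highest genotype at 2, 4, 8 and 16 h, TRIF-KO-labelled cells reached their highest value at 8 h rather than 4 h, and MyD88-KO cells were above 0 up to 8 h and below it at 16 h. At 4 h the WT ratio was a 17.2-fold difference, the largest Mt2 value on the 20 arrays. Averaged over time, Mt2 rose in TRIF-KO-labelled cells by 1.12 ± 0.39 (adjusted p = 0.0428, limma) and in WT by 2.46 ± 0.39 (adjusted p = 0.000456, limma). The response was 0.43 ± 0.39 in MyD88-KO (adjusted p = 0.413, limma) and -0.00 ± 0.39 in double-KO, neither of which passed the test. The TRIF-KO-labelled value was 0.91 without its 8 h array (adjusted p = 0.19, limma) and 0.75 without its 16 h array (adjusted p = 0.226, limma).

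Mt1, read by its brighter probe, gave -0.00, 0.07, -0.31, 0.28 and 0.16 from 1 to 16 h in TRIF-KO-labelled cells. The MyD88-KO ratios were 0.19, 0.02, 0.27, -0.81 and -1.89, and the double-KO ratios lay between 0.00 and 0.14. The WT ratios were -0.35, 0.72, 2.00, 2.10 and 0.68. By this probe only WT had arrays above 0.3, and the lowest values of all were those of MyD88-KO at 8 and 16 h. Mt1 rose in WT by 1.03 ± 0.30 (adjusted p = 0.015, limma), and it was not called in TRIF-KO-labelled cells (0.04 ± 0.30), MyD88-KO (-0.44 ± 0.30) or double-KO (0.09 ± 0.30). The WT value was 0.82 without its 4 h array and 0.75 without its 8 h array, with adjusted p = 0.0937 and 0.104 (limma).

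The second Mt1 probe, which was dimmer, gave the same direction in WT at 2, 4 and 8 h, with 2.20, 2.68 and 1.40. It differed from the brighter probe in MyD88-KO cells, where its ratio was -0.29 at 16 h and 0.72 at 2 h. The low late ratio of Mt1 in MyD88-KO was thus seen with the brighter probe alone, and Mt2 stood at -0.86 on that array. In TRIF-KO-labelled cells the dimmer probe gave -0.31, -0.46, 0.23, 0.76 and 0.38 from 1 to 16 h. In MyD88-KO at 1 h it gave 0.59, so with that probe ratios above 0.3 were not limited to WT.

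The tested difference between double-KO and WT was -2.46 ± 0.55 for Mt2 (adjusted p = 0.0146, limma) and -0.94 ± 0.42 for Mt1 (adjusted p = 0.146, limma). Between MyD88-KO and WT, Mt1 differed by -1.47 ± 0.42 and Mt2 by -2.03 ± 0.55, with unadjusted p = 0.0033 and 0.0022 and adjusted p = 0.185 and 0.17 (limma), so neither passed. Between TRIF-KO-labelled cells and WT the differences were -0.99 ± 0.42 for Mt1 and -1.35 ± 0.55 for Mt2, with adjusted p = 0.635 for both (limma).

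Slc39a14 (ZIP14), a membrane importer of zinc and of iron that is not bound to transferrin, was read by a probe at chr14:70703394-70703453 (mm9, minus strand). Its ratios were 0.25, 1.30, 3.82, 3.84 and 2.37 from 1 to 16 h in TRIF-KO-labelled cells. In MyD88-KO cells they were 0.05, 1.06, 1.88, 0.21 and 0.11, and in double-KO cells they lay between -0.06 and 0.16. In WT cells they were 0.19, 1.75, 4.18, 3.98 and 1.73. TRIF-KO-labelled cells and WT followed nearly the same course, whereas the MyD88-KO ratio was back near 0 by 8 h. At 4 h the level with LPS was 14.1-fold higher in TRIF-KO-labelled cells, 3.69-fold in MyD88-KO and 18.2-fold in WT.

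Over the time points Slc39a14 rose by 2.32 ± 0.39 in TRIF-KO-labelled cells (adjusted p = 0.000901, limma) and by 2.37 ± 0.39 in WT (adjusted p = 0.00059, limma). Its MyD88-KO response of 0.66 ± 0.39 did not pass (adjusted p = 0.197, limma). Double-KO cells differed from TRIF-KO-labelled cells by -2.30 ± 0.55 (adjusted p = 0.027, limma) and from WT by -2.35 ± 0.55 (adjusted p = 0.0175, limma). The difference between MyD88-KO and WT was -1.70 ± 0.55, with an unadjusted p = 0.0073 and an adjusted p = 0.22 (limma), and that between TRIF-KO-labelled cells and WT was -0.05 ± 0.55.

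The iron exporter Slc40a1 (probe at chr1:45965255-45965314, mm9, minus strand) was the only member called lower with LPS in every genotype but double-KO. Its ratios from 1 to 16 h were -0.09, -0.95, -2.37, -0.22 and -1.86 in TRIF-KO-labelled cells. They were 0.12, -0.55, -3.07, -2.41 and -1.54 in MyD88-KO cells and lay between -0.06 and 0.11 in double-KO cells. In WT cells they were -0.07, -0.76, -3.93, -1.19 and -1.32. All genotypes but double-KO had their lowest ratio at 4 h, where the level with LPS was 5.17-fold lower in TRIF-KO-labelled cells, 8.41-fold lower in MyD88-KO and 15.3-fold lower in WT. The 1 h arrays of all 4 genotypes lay within 0.12 of 0.

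Slc40a1 fell by 1.10 ± 0.33 in TRIF-KO-labelled cells (adjusted p = 0.0214, limma), by 1.49 ± 0.33 in MyD88-KO (adjusted p = 0.00397, limma) and by 1.46 ± 0.33 in WT (adjusted p = 0.00395, limma). The double-KO response of 0.03 ± 0.33 differed from that of MyD88-KO by 1.53 ± 0.46 (adjusted p = 0.0497, limma) and from that of WT by 1.49 ± 0.46 (adjusted p = 0.0492, limma). MyD88-KO and WT differed by -0.04 ± 0.46. The TRIF-KO-labelled call was lost without the 1, 2, 4 or 16 h array of that genotype (adjusted p = 0.055, 0.0828, 0.0573 and 0.112, limma) and without the replicate block (adjusted p = 0.108, limma). Both tested differences are close to the threshold, and without the TRIF-KO-labelled arrays in the fit their adjusted p-values were 0.111 and 0.0965 (limma).

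Cp, the copper-containing ferroxidase that oxidizes the iron leaving through ferroportin, was read by a probe at chr3:19889071-19889130 (mm9, plus strand). Its ratios were -0.40, -0.06, 1.80, 2.63 and 1.87 from 1 to 16 h in TRIF-KO-labelled cells and -0.13, 0.22, 0.94, 2.98 and 1.91 in MyD88-KO cells. In double-KO cells they lay between -0.29 and -0.01, and the probe was not well above background in either channel at 2 and 4 h there, so 3 of the 5 arrays measured it. In WT cells they were -0.02, -0.22, 3.54, 2.91 and 1.44. Outside double-KO, no ratio was above 0.22 at 1 or 2 h and none was below 0.94 from 4 h on, with the WT maximum at 4 h and the others at 8 h.

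Cp rose by 1.17 ± 0.36 in TRIF-KO-labelled cells (adjusted p = 0.0238, limma), by 1.18 ± 0.36 in MyD88-KO (adjusted p = 0.0191, limma) and by 1.53 ± 0.36 in WT (adjusted p = 0.00483, limma). Its response in double-KO was -0.10 ± 0.36 and differed from WT by -1.64 ± 0.50 (adjusted p = 0.0478, limma). Of 33 other settings, 9 kept that call, 23 kept the direction only and 1 reversed it. The Cp call in TRIF-KO-labelled cells was lost without the 4, 8 or 16 h array of that genotype (adjusted p = 0.0673, 0.105 and 0.101, limma). The MyD88-KO call was lost without its 8 or 16 h array (adjusted p = 0.108 and 0.0994, limma) and with ratios scaled between arrays (0.73, adjusted p = 0.0506, limma). The second Cp probe, at chr3:19907511-19907570, was dimmer and was well above background on 7 arrays with LPS and 3 without. At 8 h its WT ratio was 2.58, and the untreated channel was not well above background in the other genotypes.

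**Figure D2:**
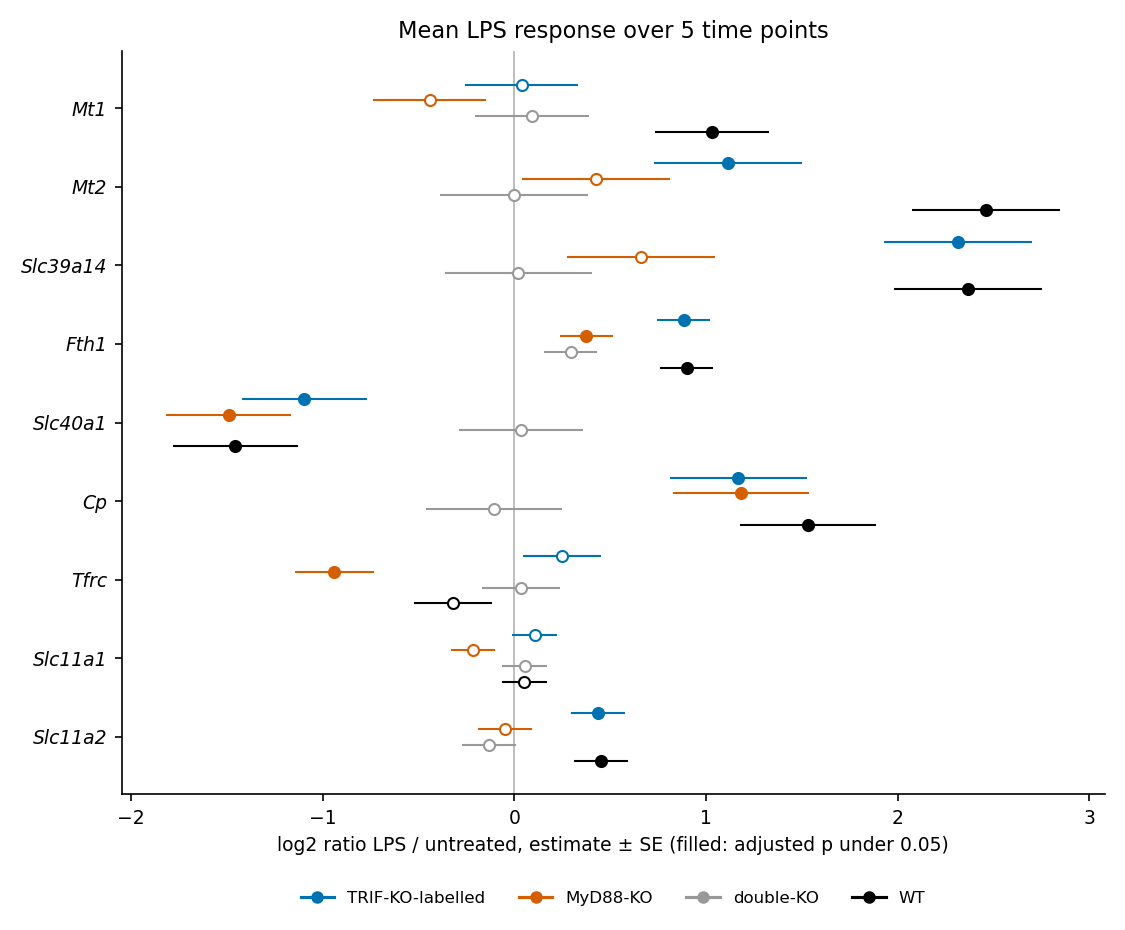
Mean LPS response of each tested member over 5 time points, as log2 ratio with its SE from limma (horizontal axis), with the 4 genotypes drawn in separate colours; filled points passed an adjusted p of 0.05. Slc40a1 is the member with filled points left of 0 in 3 genotypes, and all double-KO points are open.

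The ferritin heavy chain Fth1 (probe at chr19:10059485-10059544, mm9, plus strand), which oxidizes and stores iron, gave ratios that were larger at later times. They were 0.42, 0.30, 0.98, 1.19 and 1.53 from 1 to 16 h in TRIF-KO-labelled cells. The MyD88-KO ratios were 0.49, -0.33, 0.36, 0.31 and 1.05, and the double-KO ratios were 0.31, 0.23, 0.29, 0.33 and 0.31. The WT ratios were 0.28, 0.28, 0.77, 1.33 and 1.83. The single value below 0 was that of the array with the dyes swapped, and the double-KO ratios, all with LPS in Cy5, were nearly the same at every time.

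Fth1 rose by 0.88 ± 0.14 in TRIF-KO-labelled cells (adjusted p = 0.000599, limma), by 0.38 ± 0.14 in MyD88-KO (adjusted p = 0.0469, limma) and by 0.90 ± 0.14 in WT (adjusted p = 0.000399, limma). The double-KO response was 0.29 ± 0.14 (adjusted p = 0.74, limma). It differed from that of MyD88-KO by -0.08 ± 0.20 (adjusted p = 0.821, limma) and from that of WT by -0.60 ± 0.20 (adjusted p = 0.0564, limma). From that of TRIF-KO-labelled cells it differed by -0.59 ± 0.20 (adjusted p = 0.0816, limma). None of these differences was called. The MyD88-KO call was lost without its 1, 4, 8 or 16 h array (adjusted p = 0.209, 0.107, 0.0605 and 0.165, limma). With a dye term in the fit the responses were 0.71 in TRIF-KO-labelled cells, 0.27 in MyD88-KO and 0.72 in WT, none of them called. Per doubling of time the ratio rose by 0.31 ± 0.08 in TRIF-KO-labelled cells (adjusted p = 0.0365, limma) and by 0.42 ± 0.08 in WT (adjusted p = 0.00927, limma), slopes that a constant dye effect does not enter. Neither slope was called after median centring in place of loess or after scaling the ratios between arrays. Among all genes, 7.05% had a called slope in TRIF-KO-labelled cells and 5.52% in WT, and Fth1 was the only member called in either. In WT the normalized Fth1 level at 16 h differed from that at 1 h by 0.33 with LPS and by -1.22 without it. Such levels depend on the normalization. With levels scaled by the 75th percentile, the untreated Fth1 slope shared by all genotypes was -0.026 and was not called.

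The transferrin receptor Tfrc, which takes up iron bound to transferrin, was read by a probe with 10 spots at chr16:32632255-32632314 (mm9, plus strand). Its ratios were 0.14, 0.19, -0.04, 0.46 and 0.49 from 1 to 16 h in TRIF-KO-labelled cells. In MyD88-KO cells they were -0.10, -0.02, -0.83, -1.47 and -2.28, and in double-KO cells 0.05, 0.16, 0.08, 0.02 and -0.15. In WT cells they were 0.05, -0.20, -0.45, -0.59 and -0.42. MyD88-KO cells had the lowest ratio of the 4 genotypes at 4, 8 and 16 h.

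Tfrc fell in MyD88-KO by 0.94 ± 0.20 (adjusted p = 0.00392, limma) and its ratio there fell by 0.58 ± 0.06 per doubling of time (adjusted p = 0.000222, limma), the only slope of a member called in MyD88-KO, against 10.3% of all genes. In MyD88-KO the 1 and 2 h arrays lay on slide 3, scanned on day 1. The 4, 8 and 16 h arrays lay on slide 4, scanned on day 2. Slopes were not fitted with slide, scan day or dye terms. No gene had a called slope in double-KO (0% of all genes, with 55 genes at an unadjusted p under 0.05 in limma). The Tfrc response was 0.25 ± 0.20 in TRIF-KO-labelled cells and -0.32 ± 0.20 in WT, and neither passed. Double-KO differed from MyD88-KO by 0.97 ± 0.29 (adjusted p = 0.0483, limma), a call that was lost without the TRIF-KO-labelled arrays (adjusted p = 0.0987, limma). The second Tfrc probe gave -0.82, -1.31 and -2.09 in MyD88-KO at 4, 8 and 16 h. It was not well above background with LPS at 8 h, and the remaining Tfrc probe was not well above background on any array.

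Both channels show how that ratio came about. In MyD88-KO cells the Tfrc level with LPS was 8.55, 8.51, 8.01, 7.53 and 8.00 from 1 to 16 h, and without LPS it was 8.65, 8.53, 8.83, 9.01 and 10.27. In WT cells it was 9.12, 9.40, 8.98, 9.53 and 10.27 with LPS and 9.06, 9.60, 9.43, 10.12 and 10.68 without it. By this probe the untreated level was thus 1.62 higher at 16 h than at 1 h in both genotypes. With LPS it was 1.15 higher at 16 h in WT and 0.55 lower in MyD88-KO. The second Tfrc probe read 9.22 at 1 h and 9.59 at 16 h in untreated WT cells. In untreated MyD88-KO cells it read 8.10 and 9.45, so by that probe the untreated rise was smaller in WT.

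**Figure D3:**
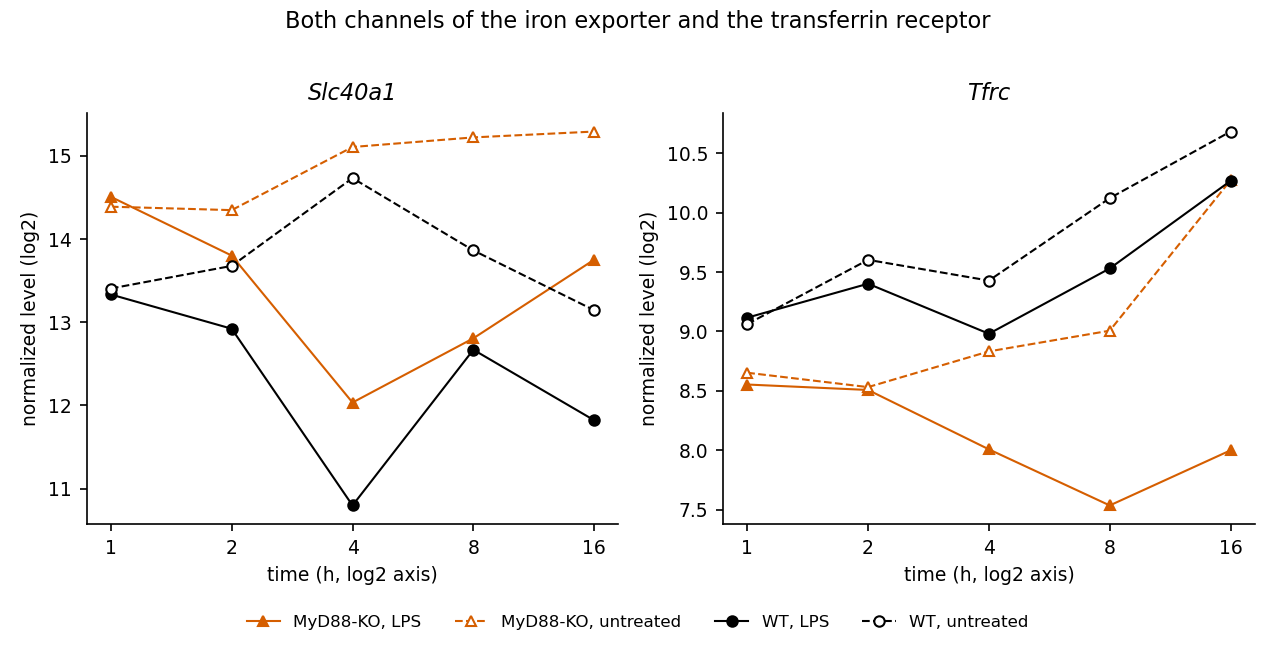
Normalized log2 level (vertical axis) of Slc40a1 and Tfrc with LPS (filled, solid line) and without it (open, dashed line) against time in hours (log2 axis) in MyD88-KO and WT cells, 1 array per point. The MyD88-KO curves of Tfrc part after 2 h and stand at 8.00 with LPS and 10.27 without it at 16 h. The MyD88-KO arrays up to 2 h and the later ones lay on different slides and were scanned on different days.

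Slc11a2 (DMT1), which moves iron out of endosomes, was read by a probe at chr15:100218333-100218392 (mm9, minus strand). Its ratios were -0.03, 0.01, 0.51, 0.87 and 0.83 from 1 to 16 h in TRIF-KO-labelled cells and 0.04, 0.10, -0.71, 0.32 and 0.01 in MyD88-KO cells. They lay between -0.30 and 0.01 in double-KO cells and were 0.20, -0.05, 0.63, 1.14 and 0.35 in WT cells. It rose by 0.44 ± 0.14 in TRIF-KO-labelled cells (adjusted p = 0.032, limma) and by 0.45 ± 0.14 in WT (adjusted p = 0.0219, limma), changes of 1.35-fold and 1.37-fold. The WT value was 0.35 without its 4 h array or its 8 h array, with adjusted p = 0.129 and 0.125 (limma). The second probe, at chr15:100240516-100240575, gave 0.30, 0.10 and -0.29 in TRIF-KO-labelled cells at 4, 8 and 16 h, where WT had 0.51, 0.60 and -0.03. The 16 h ratio of TRIF-KO-labelled cells thus had opposite signs with the 2 probes. With the mean of both probes the TRIF-KO-labelled response was 0.23 and was not called (adjusted p = 0.0866, limma). That call was also lost without the 4, 8 or 16 h array of that genotype (adjusted p = 0.132, 0.112 and 0.159, limma).

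Slc11a1 (Nramp1), which pumps divalent metals out of the phagosome and for which C57BL/6 mice are known to carry a susceptible allele, was not called in any genotype. Its probe at chr1:74432161-74432220 (mm9, plus strand) gave ratios of 0.00 to 0.30 in TRIF-KO-labelled cells, -1.06 to 0.08 in MyD88-KO, 0.01 to 0.13 in double-KO and -0.29 to 0.67 in WT. The MyD88-KO value of -1.06 came from the 8 h array alone, and the other 4 arrays of that genotype lay between -0.16 and 0.08. Hamp, whose product controls ferroportin and is made mainly by the liver, had a probe at chr7:31727490-31727549 (mm9, minus strand) that was not well above background on any array, so its level is only bounded by the background.

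Between genotypes, 4 of the 9 members differed in their response between double-KO and WT, 1 higher and 3 lower, against 12.0% of all genes. Between double-KO and MyD88-KO 2 differed, both higher in double-KO, against 10.0% of all genes, and between double-KO and TRIF-KO-labelled cells 1 differed, lower in double-KO, against 6.64%. No member and no gene was called between MyD88-KO and WT (0% of all genes), where 5 members and 3188 genes had an unadjusted p under 0.05 in limma. Likewise 0% of genes were called between TRIF-KO-labelled cells and WT (2 members and 1651 genes at an unadjusted p under 0.05 in limma) and 0% between TRIF-KO-labelled and MyD88-KO cells (4 members and 4092 genes). A response called in WT and not in MyD88-KO, as for Mt1, Mt2, Slc39a14 and Slc11a2, is therefore not shown to differ between them. The comparisons with WT share the WT arrays. Without the replicate block for time point, no member was called in any difference that involves double-KO. No member was called between double-KO and WT without the 4 h or the 8 h array of either, and the counts against MyD88-KO and TRIF-KO-labelled cells ranged over 0 to 3 and 0 to 4 when single arrays were left out.

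Without LPS, the members differed between genotypes as well. Against WT, untreated double-KO cells had 3 members higher and 3 lower, against 25.7% of all genes called, and untreated MyD88-KO cells had 2 higher and 3 lower, against 9.91%. In TRIF-KO-labelled cells no member was called, against 0.423% of all genes, and 1 member had an unadjusted p under 0.05 in limma (Tfrc, named after its value was seen). Cp, Slc11a2 and Tfrc were lower and Slc40a1 higher in both MyD88-KO and double-KO, Fth1 was higher in double-KO, and Mt1 was higher in both by its brighter probe alone. These comparisons share the WT samples, and no slide held WT beside either knockout.

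Untreated Cp was between 8.93 and 11.98 in TRIF-KO-labelled cells, 7.66 and 8.56 in MyD88-KO, 7.12 and 7.79 in double-KO and 9.19 and 12.40 in WT. The ranges of MyD88-KO and double-KO lay wholly below that of WT. The difference from WT was -2.49 ± 0.39 in MyD88-KO (adjusted p = 0.00184, limma) and -3.17 ± 0.37 in double-KO (adjusted p = 2.15e-05, limma). The MyD88-KO difference is 5.60-fold lower. In double-KO the probe was well above background on 3 of 5 untreated arrays, so no fold is given for it.

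Untreated Slc40a1 stood at 13.29, 13.47, 14.42, 13.82 and 13.09 from 1 to 16 h in TRIF-KO-labelled cells and at 14.39, 14.35, 15.11, 15.22 and 15.29 in MyD88-KO cells. In double-KO cells it stood at 15.17, 15.22, 15.53, 15.96 and 16.12, and in WT cells at 13.41, 13.68, 14.73, 13.86 and 13.14. Double-KO was the highest and MyD88-KO the next at every time point, and the double-KO range did not overlap with that of WT. The difference from WT was 1.19 ± 0.25 in MyD88-KO (adjusted p = 0.0107, limma) and 1.84 ± 0.23 in double-KO (adjusted p = 5.58e-05, limma), against -0.15 ± 0.23 in TRIF-KO-labelled cells. With LPS at 4 h the level was 12.05 in TRIF-KO-labelled, 12.04 in MyD88-KO, 15.54 in double-KO and 10.80 in WT cells.

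Untreated Slc11a2 stood between 12.51 and 13.88 in TRIF-KO-labelled cells, 12.00 and 13.02 in MyD88-KO, 11.73 and 12.81 in double-KO and 12.80 and 14.11 in WT. It was below WT at every time point in both MyD88-KO and double-KO. By this brighter Slc11a2 probe the difference was -0.91 ± 0.13 in MyD88-KO (adjusted p = 0.00067, limma) and -1.38 ± 0.12 in double-KO (adjusted p = 1.21e-06, limma). The second Slc11a2 probe lay closer together, with means of 8.38 ± 0.14 in MyD88-KO, 8.51 ± 0.10 in double-KO and 8.74 ± 0.20 in WT (SD, n = 5 each). For Tfrc the differences were -0.65 ± 0.12 in MyD88-KO (adjusted p = 0.00393, limma) and -0.71 ± 0.11 in double-KO (adjusted p = 0.000272, limma). Untreated Mt1 ranged from 14.36 to 16.45 in TRIF-KO-labelled cells, 15.59 to 16.79 in MyD88-KO, 15.46 to 16.64 in double-KO and 14.33 to 16.07 in WT, so the ranges overlapped, while at each time point both MyD88-KO and double-KO stood above WT. By this brighter probe Mt1 was higher by 0.85 ± 0.17 in MyD88-KO (adjusted p = 0.00825, limma) and by 0.61 ± 0.16 in double-KO (adjusted p = 0.0124, limma). The dimmer probe, well above background on every array, averaged 9.05 ± 0.91 in MyD88-KO, 8.74 ± 0.61 in double-KO and 9.12 ± 0.94 in WT (SD, n = 5 each). With the mean of both probes the Mt1 differences from WT were 0.38 in MyD88-KO and 0.11 in double-KO, and neither was called (adjusted p = 0.0735 and 0.535, limma). Fth1 was higher by 0.54 ± 0.15 in double-KO (adjusted p = 0.0166, limma).

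**Figure D4:**
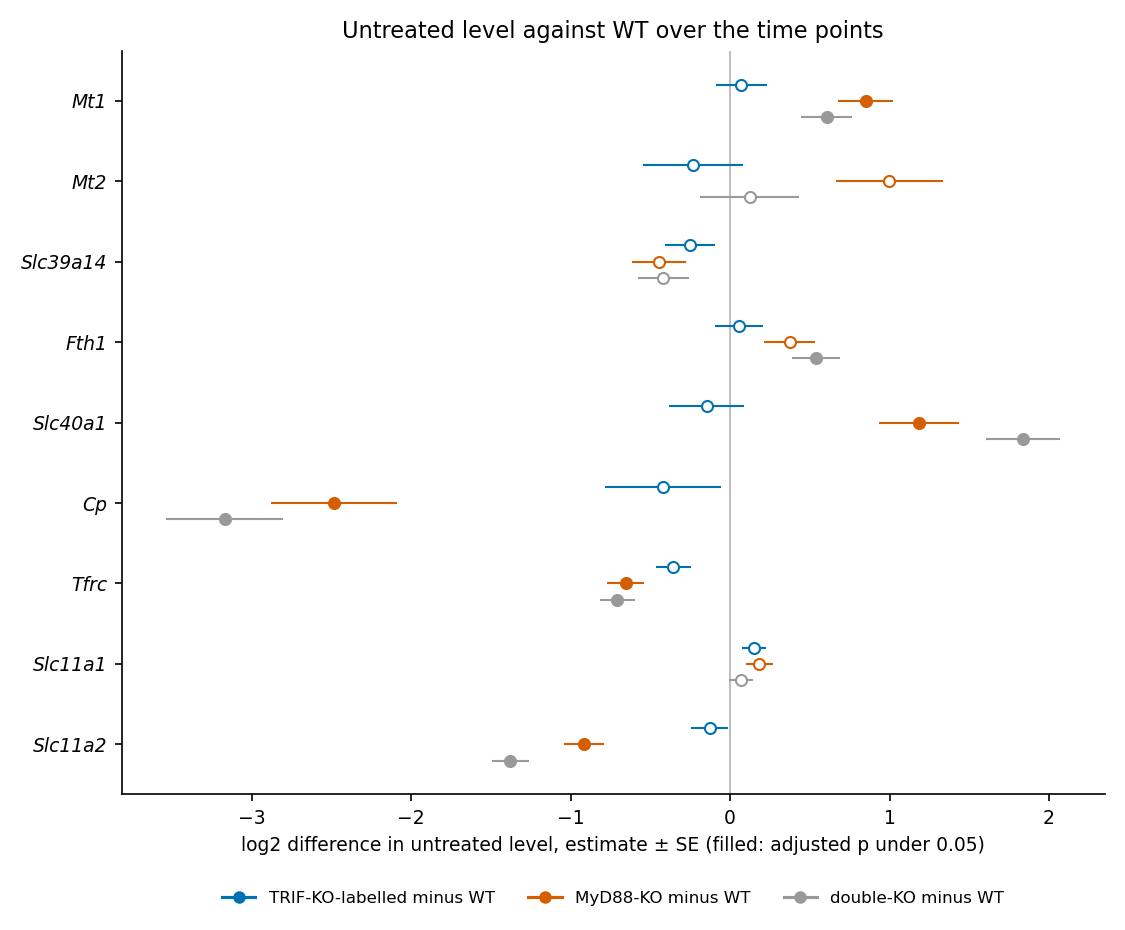
Difference in untreated level from WT for each tested member, in log2 with its SE from limma (horizontal axis), for cells labelled TRIF-KO, for MyD88-KO and for double-KO; filled points passed an adjusted p of 0.05. The TRIF-KO-labelled points are all open, and the filled MyD88-KO points lie on the same side of 0 as those of double-KO.

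With scan day as a block, 0 of the members were called in MyD88-KO and 1 in double-KO, and with slide as a random block 0 and 3. All WT arrays were scanned on day 1 and all double-KO arrays on day 2. Of the MyD88-KO arrays in these fits, the 1 h array was scanned on day 1 and the later ones on day 2. The scan day block thus rests on that array and cannot tell day from genotype. With scan day, the uncalled MyD88-KO differences from WT were 0.85 in Mt1, -0.85 in Slc11a2, 1.00 in Slc40a1, -0.48 in Tfrc and -1.97 in Cp. With slide as a random block Slc40a1 differed by 1.31 and Cp by -2.63. In double-KO the Fth1 difference was -0.065 with scan day and 0.62 with slide. Markers of neutrophils, which a bone marrow culture could hold, also differed: 9 of 11 were well above background on all 5 untreated samples in TRIF-KO-labelled, MyD88-KO and WT cells and 8 of 11 in double-KO. Their summed log2 level was 15.63 to 16.05 in TRIF-KO-labelled, 16.81 to 17.13 in MyD88-KO, 15.66 to 16.24 in double-KO and 15.51 to 15.87 in WT cells. The sum leans on S100a9, the brightest of them, with means of 16.39 in MyD88-KO and 14.82 in WT. S100a8, Camp, Ngp, Ltf, Mpo and Cxcr2 also had their highest mean in MyD88-KO. Elane and Mmp8 were highest in double-KO, Ly6g in WT and Prtn3 in TRIF-KO-labelled cells. The part of these markers in the results was not tested.

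Time in serum-free medium without LPS went with changes in 8 of the 9 members, against 31.3% of all genes, when 1 slope over log2 time was fitted for all genotypes. Per doubling of time, Cp rose by 0.46 ± 0.10 (adjusted p = 0.0024, limma), Tfrc by 0.38 ± 0.05 (adjusted p = 3.36e-05, limma), Slc39a14 by 0.28 ± 0.04, Slc11a2 by 0.25 ± 0.04 and Slc11a1 by 0.25 ± 0.04. Mt2 fell by 0.62 ± 0.11 (adjusted p = 0.000549, limma), Mt1 by its brighter probe fell by 0.34 ± 0.07 and Fth1 fell by 0.16 ± 0.04. The metallothionein courses were not steady. Untreated Mt2 stood at 13.44, 14.31, 14.45, 13.59 and 11.35 from 1 to 16 h in WT. In double-KO it stood at 14.74, 14.87, 13.60, 12.29 and 12.24. In TRIF-KO-labelled cells untreated Mt1 was 15.54 at 1 h and 16.45 at 4 h by its brighter probe, and 10.24 and 8.84 by its dimmer probe. With levels scaled by the 75th percentile in place of loess and Aquantile, the Fth1 slope was -0.026 (adjusted p = 0.904, limma) and the Cp slope 0.36 (adjusted p = 0.153, limma), so neither was called. Slc40a1 was not called (0.11 ± 0.07, adjusted p = 0.273, limma).

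**Figure D5:**
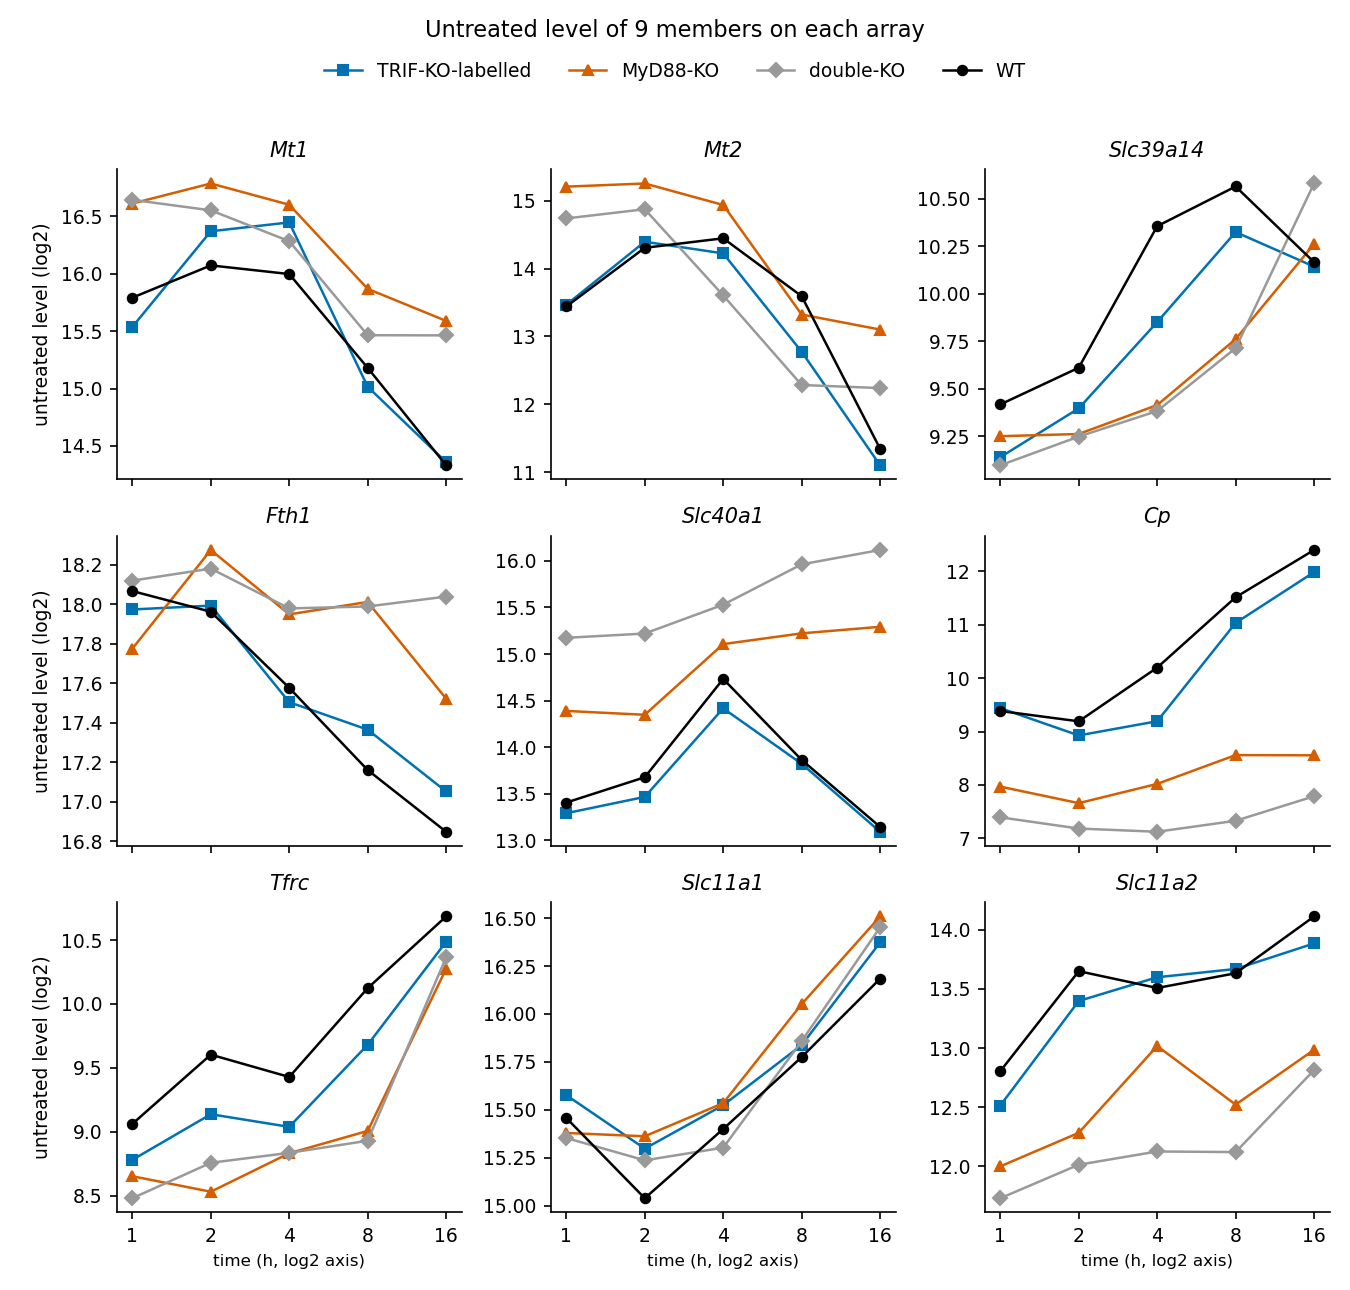
Normalized log2 level of untreated cells (vertical axis, own scale per panel) on each of the 20 arrays against time in hours (log2 axis), by genotype; the MyD88-KO point at 2 h is from the Cy5 channel of the swapped array, which the fits leave out. Slc40a1 runs from 15.17 to 16.12 in double-KO and ends at 13.14 in WT.

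The course of single genes differed between genotypes within this shared slope. Untreated Cp at 16 h stood above its 1 h level by 2.54 in TRIF-KO-labelled cells, 0.59 in MyD88-KO, 0.39 in double-KO and 3.01 in WT. Untreated Fth1 at 16 h differed from 1 h by -0.92 in TRIF-KO-labelled cells, -0.25 in MyD88-KO, -0.08 in double-KO and -1.22 in WT. Untreated Mt2 differed by -2.37, -2.11, -2.50 and -2.10 in the same order of groups, so all 4 genotypes lost Mt2 signal to a similar extent. These within-genotype courses rest on 1 array per time and were not tested against each other.

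Among themselves, the log2 ratios of Mt2 and Slc39a14 had a Pearson correlation of 0.87 over the 20 arrays and those of Mt1 and Mt2 one of 0.84, the 2 highest of the 36 pairs of tested members. Slc40a1 and Cp had the lowest, at -0.73. These are descriptions over arrays that share genotypes, times and slides. Outside the set, the gene with the ratio most like that of Slc39a14 was Stard7 (r = 0.97), followed by Stard5 (0.97) and Eif2s2 (0.96). For Mt2 it was Epha4 (0.95), for Mt1 Zfp618 (0.88), for Cp E2f5 (0.95), for Fth1 Tmeff1 (0.94), for Slc11a2 Mapkbp1 (0.89) and for Slc11a1 Clec4n (0.91). For Tfrc it was Tacc2 (0.94) followed by the macrophage marker Adgre1 (0.91). For Slc40a1 it was Wdr81 (0.94), followed by the zinc transporter Slc30a5 (0.93).

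Other genes of iron handling were read from a list of 39, of which 36 were tested. With LPS 7 of them rose and 11 fell in TRIF-KO-labelled cells, 3 rose and 11 fell in MyD88-KO, none was called in double-KO, and 9 rose and 11 fell in WT. Over all genes the shares called were 29.1%, 35.5%, 0.387% and 36.4% in these groups. The list's median response in WT was -0.12, against -0.01 over all genes. Slc25a37 (mitoferrin 1), which brings iron into mitochondria, rose by 1.05 ± 0.21 in TRIF-KO-labelled cells, by 1.17 ± 0.21 in MyD88-KO and by 1.54 ± 0.21 in WT (adjusted p = 0.00268, 0.00176 and 0.000203, limma). Hp (haptoglobin, which binds free hemoglobin) and Lcn2 (lipocalin 2, which binds bacterial siderophores) had MyD88-KO responses of 0.84 ± 0.35 and 0.28 ± 0.26, which did not pass the test, and rose in WT by 1.59 ± 0.35 and 1.41 ± 0.26. Ltf (lactoferrin, an iron-binding protein of neutrophil granules that is also in the neutrophil list) fell by 0.83 ± 0.22 in MyD88-KO and by 1.01 ± 0.22 in WT.

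In untreated cells, 3 of the 36 genes of that list were higher than in WT in MyD88-KO, against 9.91% of all genes called, and 8 were higher and 5 lower in double-KO, against 25.7%. Lcn2 and Hp were lower in double-KO, with differences of -2.86 ± 0.73 (adjusted p = 0.0104, limma) and -2.09 ± 0.42 (adjusted p = 0.0025, limma). Ltf was higher in MyD88-KO by 1.90 ± 0.10 (adjusted p = 3.77e-08, limma), where the summed neutrophil markers were also highest.

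Of 26 further zinc genes 21 were tested, and with LPS 4 rose and 4 fell in TRIF-KO-labelled cells, 7 rose and 6 fell in MyD88-KO and 6 rose and 5 fell in WT, against 29.1%, 35.5% and 36.4% of all genes called. Slc30a1, the zinc exporter of the plasma membrane, rose in MyD88-KO by 1.23 ± 0.36 (adjusted p = 0.0161, limma) and stood at -0.65 ± 0.36 in WT, which did not pass. Slc39a8 (ZIP8), a zinc importer, fell in MyD88-KO by 0.85 ± 0.21 (adjusted p = 0.00832, limma), and Slc30a4 rose in WT by 0.87 ± 0.27 (adjusted p = 0.0226, limma). Untreated Slc39a4, another zinc importer, was lower in both MyD88-KO and double-KO, with differences from WT of -1.17 ± 0.16 (adjusted p = 0.000594, limma) and -1.81 ± 0.15 (adjusted p = 7.23e-07, limma).

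All 12 further copper genes were tested, and with LPS 3 rose and 3 fell in TRIF-KO-labelled cells, 2 rose and 3 fell in MyD88-KO and 4 rose and 4 fell in WT, against the same shares of all genes. The copper importer Slc31a1 rose by 1.06 ± 0.19 in TRIF-KO-labelled cells and by 1.04 ± 0.19 in WT. Its MyD88-KO response of 0.46 ± 0.19 did not pass. Slc31a2, its relative, rose by 1.11 ± 0.19 in TRIF-KO-labelled cells, 1.58 ± 0.19 in MyD88-KO and 1.17 ± 0.19 in WT. Sco1 and Sco2, which deliver copper to cytochrome c oxidase, gave 1.19 ± 0.30 and -0.91 ± 0.25 in MyD88-KO (adjusted p = 0.00855 and 0.0116, limma).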

How the data were processed

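Labelled RNA of LPS-treated and untreated macrophages was hybridised together on 20 arrays, and groups, times and dyes come from the labels. The deposited files are scanner output of Agilent Feature Extraction (version 10.10.1.1, per the file headers). They hold, spot by spot, the mean and background intensity of both channels as the authors deposited them, and the authors' log10 ratio of processed Cy5 over Cy3, used as an alternative. Probe positions are in mm9, per the file headers.

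Computations used R 4.3.3 with limma 3.58.1 and the data.table package (1.17.8) for reading files. Background was corrected with normexp (offset 50), control spots were dropped, outlier spots were set to missing, and ratios were normalized by loess within each array. Levels were further set equal between arrays in mean log intensity by quantiles (Aquantile). Values of replicate spots were averaged, and probes were retained where at least 0.5 of their spots were well above background in 1 channel on at least 3 arrays (28304 of 39429 probes), and the brightest kept probe stood for its gene (21963 genes, 235 with a missing ratio). Names were matched to the RefSeq table for 27234 probes by accession, 3576 by symbol and 565 by synonym, and 8054 kept the name in the file.

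Ratios were fitted for all 20 arrays by genotype with time point as a block, slopes by genotype over log2 time, and untreated levels on the 19 Cy3 channels. A gene was called at a Benjamini-Hochberg adjusted p under 0.05 over all genes. Deviations of same-numbered arrays, which the labels give the same time, correlated at 0.74 to 0.83 between TRIF-KO-labelled and WT ratios, 0.28 to 0.70 between MyD88-KO and WT and down to -0.19 with double-KO. The fits were tested on simulated data with known changes. Alternatives changed the background correction, normalization, filter, probe choice, dye, slide and scan day terms, the block and the arrays left out. The members, gene lists and tests were chosen with earlier results of these data known. All 10 members are named, with the 3 genes of most similar ratio computed for each, and up to 4 genes from each further list, those of largest value called in the WT or MyD88-KO response or in an untreated comparison. Promoters were found in RefSeq's table (GRCm38.p6) for Mt1, Mt2, Tfrc, Slc11a1, Hamp, Cp and Fth1.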

Additional observations from a re-analysis of the deposited data

Results flagged for a closer look

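In 5 of 108 sets of 5 arrays of 1 genotype, the array farthest out stood apart from the rest by a share of the range above Dixon's critical value of 0.71, and chance alone gives about 1 in 20. Untreated Tfrc was 10.27 in MyD88-KO at 16 h, with the next array at 9.01, and 10.37 in double-KO at 16 h, with the next at 8.93. With LPS, Tfrc in double-KO was 10.21 at 16 h, with the next at 8.96. The Slc11a1 ratio in MyD88-KO was -1.06 at 8 h, with the next at -0.16. The Slc11a1 level with LPS in WT was 16.86 at 16 h, with the next at 15.55. All of these but the Slc11a1 ratio are the latest time point of a course and not repeats of 1 condition.

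The response to LPS differed between genotypes by the test of the difference in 7 cases. Against WT, double-KO differed in Mt2 (-2.46), Slc39a14 (-2.35), Cp (-1.64) and Slc40a1 (1.49). Against MyD88-KO, double-KO differed in Slc40a1 (1.53) and Tfrc (0.97), and against TRIF-KO-labelled cells in Slc39a14 (-2.30). Against WT, the calls were kept in 24 of 33 other settings for Mt2, 23 for Slc39a14, 9 for Cp and 7 for Slc40a1. Against MyD88-KO both were kept in 10 of 33, and against TRIF-KO-labelled cells the call was kept in 22 of 32.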

How the results depend on the processing

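Of 1365 values of called members under other settings, 1076 kept direction and call, 283 kept the direction only and 6 reversed. Of 537 counts of called members, 427 stayed within 1.5 times. The settings below give counts of called members, and the cause of each change was not tested. Leaving out the TRIF-KO-labelled arrays, and the slide and scan day blocks for untreated levels, were chosen after seeing the data.

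For the LPS response (6 called in TRIF-KO-labelled cells, 4 in MyD88-KO, 0 in double-KO, 7 in WT), a dye term gave 0, 0 and 2 in TRIF-KO-labelled, MyD88-KO and WT cells. Slide as a fixed block gave 0, 1 and 0, and as a random block 2, 1 and 3. Without the replicate block the first 2 were 2 and 2, scan day gave 2 in TRIF-KO-labelled cells, ratios scaled between arrays gave 2 in MyD88-KO and 1 in double-KO, and 2 were left in MyD88-KO without the TRIF-KO-labelled arrays. For the difference of double-KO from WT (4), from MyD88-KO (2) and from TRIF-KO-labelled cells (1), the fit without the replicate block, either slide block and the fit of the 2 groups alone all gave 0. Against WT, no filter, the dye term and the TRIF-KO-labelled arrays left out gave 2 each, and scan day 1. Against MyD88-KO, no filter and those arrays left out gave 0, and ratios scaled between arrays and the mean over kept probes 1. Against TRIF-KO-labelled cells, the authors' processed log ratio and scaled ratios gave 2 and scan day 0. The slopes of TRIF-KO-labelled cells and WT (1 each) were 0 after median centring and after scaling. For untreated levels, double-KO against WT (6) gave 3 without the replicate block, 2 with slide fixed, 3 with slide random, 1 with scan day and 3 with the 75th percentile. MyD88-KO against WT (5) gave 0, 3, 0, 0 and 2 under these.

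With slide as a fixed block, 5 values reversed: Slc11a2 in WT (-0.14), Slc39a14 (1.72) and Cp (0.13) in double-KO against WT, Slc39a14 in double-KO against TRIF-KO-labelled cells (1.21) and untreated Tfrc in double-KO against WT (0.012). WT shared a slide with another genotype through its 16 h array alone, and double-KO through its 1 h array alone. The slide block thus links these genotypes by single arrays and cannot well tell slide from genotype. With scan day, untreated Fth1 in double-KO against WT reversed (-0.065).

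Leaving out 1 array at a time gave 2 to 6 called in TRIF-KO-labelled cells (fewest without 16 h), 2 to 4 in MyD88-KO (fewest without its 8 h or 16 h), 5 to 7 in WT, 0 to 5 between double-KO and WT (0 without the 4 h or 8 h array of either), 0 to 3 between double-KO and MyD88-KO, 0 to 4 between double-KO and TRIF-KO-labelled cells and 0 to 1 between TRIF-KO-labelled and MyD88-KO cells. The slopes gave 0 to 2 in TRIF-KO-labelled cells, 1 to 2 in MyD88-KO and 1 to 4 in WT (most without its 16 h array).

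Over all genes, 7995 were called in the WT response, against 0 with slide as a fixed block, 458 with a dye term and at most 8301 under another setting. Between double-KO and WT 2639 were called, against 0 with slide fixed, 256 without the replicate block and at most 4111 with an array left out. For untreated levels, double-KO against WT gave 1036 with slide as a random block, against 5634 reported, and MyD88-KO against WT 99, against 2176. The double-KO response ranged from 0 with a dye term to 2492 with scaled ratios, against 85. Dim probes limit Cp and the second Tfrc probe, which some arrays did not measure.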

Other observations

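The summed log2 level of markers of other cell types in untreated cells, over all 4 genotypes, lay between 14.18 and 16.04 for T cells, 16.78 and 17.60 for B cells, 10.08 and 10.36 for NK cells and 16.99 and 17.41 for dendritic cells. It lay between 10.57 and 13.95 for mast cells and basophils, 10.41 and 11.08 for stromal cells and 9.70 and 10.06 for hepatocytes, whose marker Alb was not well above background in any genotype. Over 16 h with LPS, the Mt1 level by its brighter probe at the last time point differed from the first by -1.02 in TRIF-KO-labelled cells, -3.09 in MyD88-KO, -1.22 in double-KO and -0.43 in WT. By the dimmer probe that level went from 9.93 to 8.63 in TRIF-KO-labelled cells and from 11.01 to 7.96 in MyD88-KO. It went from 9.86 to 8.27 in double-KO and from 10.46 to 8.47 in WT, so the small WT change was seen with the brighter probe alone.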
